A study of Homo sapiens with 6 samples.

Results

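The insulin-like growth factor (IGF) and insulin signalling genes described here are 10 of the 19937 gene rows of a read count and FPKM table, taken by name: IGF2, IGF1R, INSR, IGF2R, IRS1, IRS2, GRB10, IGFBP2, IGFBP4 and IGFBP5. The table holds 6 RNA sequencing libraries made from SK-N-BE(2) cells, a line established from a human neuroblastoma with amplified MYCN. By their titles, 3 libraries are sgcon and 3 are sgGPR91. The guide of the second group targets GPR91, the succinate receptor encoded by SUCNR1. The genotype tags say the reverse, with knockout on the sgcon libraries and control on the sgGPR91 libraries, so titles name the groups here, and if the tags hold instead, each rise below is a fall and each fall a rise. Both groups had been exposed to a drug for 48 hours, given as doxorubicin at 100 nmol/L in the sample tags and as DOX at 1.5 µg/ml in the growth protocol, and no unexposed library was analysed here. The sources used here do not say whether the edited cells were a clone or a pool.

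Insulin and the IGFs signal through a pair of related receptor tyrosine kinases, the IGF1 receptor (IGF1R) and the insulin receptor (INSR). The activated receptors phosphorylate the docking proteins IRS1 and IRS2, which recruit PI3-kinase and lead to AKT, mTOR and the FOXO transcription factors. IGF-binding proteins (IGFBPs) hold the ligands outside the cell, IGF2R carries IGF2 to lysosomes, and GRB10 is an adaptor that binds the activated receptors and dampens them. IGF2 is known as an autocrine growth factor in neuroblastoma, and both IGF2 and GRB10 are imprinted genes.

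Library totals ran from 7070189 to 10252425 reads. SUCNR1 itself had 1, 0 and 2 reads in the sgcon libraries and 1, 0 and 0 in the sgGPR91 libraries, too few to show which set of labels was right. All 14 neuroblastoma markers examined were detected, and 10 were lower, 3 higher and 1 not called in sgGPR91. The share called at an edgeR adjusted p under 0.05 was 92.9%, against 41.1% of all tested genes. MYCN was at 2769 ± 132.7 CPM (reads scaled to a common library size) in sgcon and 1690.4 ± 150.4 CPM in sgGPR91 (SD, n = 3 per group). The summed level of these markers was 7408 to 8308 CPM in sgcon and 5627 to 6109 CPM in sgGPR91. Of 13 mesenchymal-type and fibroblast markers, 12 were tested, of which 4 were higher and 3 lower, a share called of 58.3%. Their sums were 1556 to 1765 CPM in sgcon and 1731 to 1804 CPM in sgGPR91. Leukocyte markers summed to at most 3.41 CPM in any library, with CD3E, CD68 and LYZ at 0 reads. CD14, the single one of these tested, had 8, 3 and 3 reads in sgcon and 20, 13 and 13 in sgGPR91, and was called higher (3.30-fold; edgeR adjusted p = 0.00936); it passed the low-count filter through the sgGPR91 libraries alone. Endothelial and epithelial markers summed to 12.2 to 17.0 CPM in sgcon and 8.17 to 9.79 CPM in sgGPR91, most of it EPCAM. The part of these marker differences in the results below was not tested.

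Among the 10 genes, differences were found at the ligand, at INSR of the signalling receptors, at 1 docking protein, at GRB10 and at the binding proteins. GRB10, IRS2, IGFBP2, IGFBP4, IGFBP5 and IGF2R rose in the libraries labelled sgGPR91, IGF2 and INSR fell, and IGF1R and IRS1 did not pass the test. Thus 8 of the 10 genes passed the quasi-likelihood test of edgeR (called, at an adjusted p under 0.05), where 5221 of 12701 tested genes (41.1%) were called. By direction, 20.2% of all tested genes were higher and 21% were lower. GRB10 passed the low-count filter through the sgGPR91 libraries alone and so had to differ to be tested; without it, 7 of 9 were called, with a median log2 fold change of 0.22. With it, the members' median log2 fold change was 0.30, against -0.01 over all tested genes. At least 2-fold differences were found for 2 of them, GRB10 and IGF2, as for 7% of all tested genes. The members were chosen with results of these data known, so these counts describe the set and are no test of it.

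**Figure D1:**
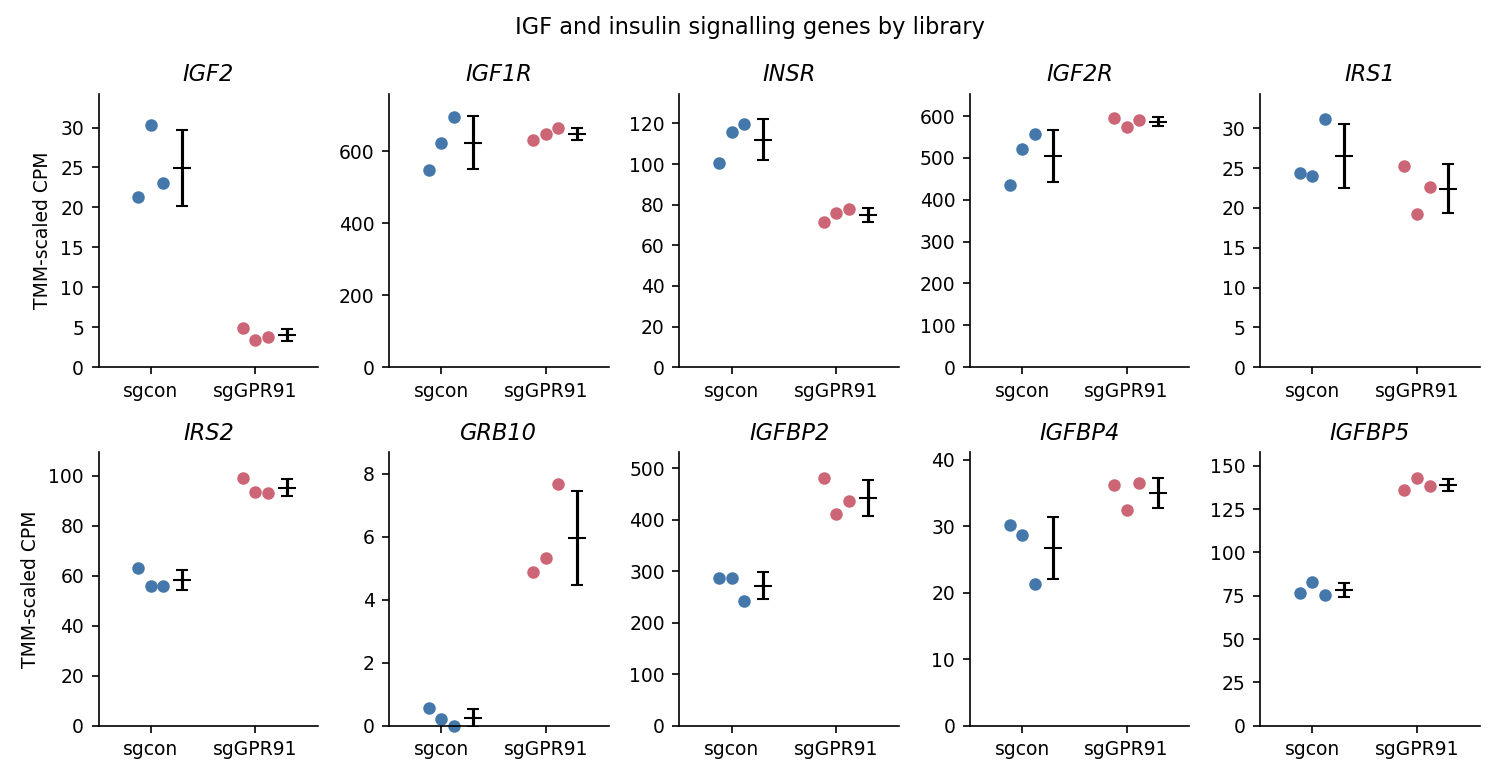
TMM-scaled CPM of each of the 10 genes in the 3 sgcon (blue) and 3 sgGPR91 (red) libraries; points are libraries and black bars are the group mean ± SD. The groups do not overlap for 8 genes, as for 50.9% of all tested genes, and overlap for IGF1R and IRS1. GRB10, among the 8, passed the low-count filter through the sgGPR91 libraries alone.

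**Figure D2:**
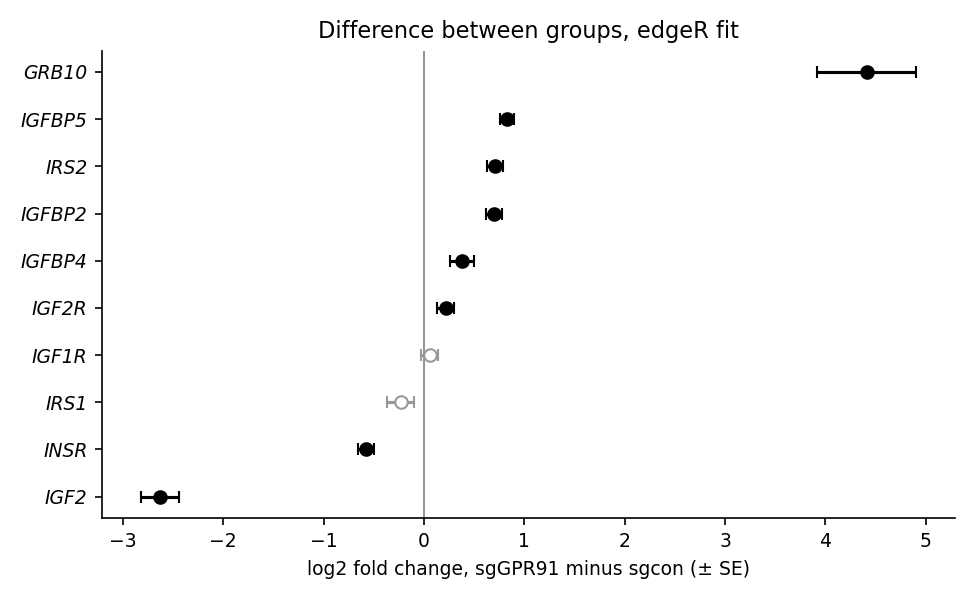
Log2 fold change of each gene, sgGPR91 minus sgcon, with its SE from the edgeR fit; filled points passed the adjusted p threshold and open points did not. GRB10 lies far to the right at 4.41, IGF2 far to the left at -2.63, and the other genes lie between -0.58 and 0.83.

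Among the ligands, IGF2 (ENSG00000167244, chromosome 11, 2129112 to 2141238, minus strand) was nearly the sole transcript detected. The sgcon libraries held 191, 307 and 166 IGF2 reads, or 21.4, 30.4 and 23.0 CPM. The sgGPR91 libraries held 43, 28 and 32 reads, or 4.88, 3.39 and 3.78 CPM. Every sgGPR91 library thus lay far below the lowest sgcon library. IGF2 fell 6.20-fold, with a log2 fold change of -2.63 ± 0.19 (SE) and an edgeR adjusted p of 2.84e-08. In a bulk library, fewer cells that make a transcript and less of it per cell cannot be told apart. IGF1, the other growth factor of the family, had 0 reads in all 6 libraries, and the insulin gene INS had 1 read in all.

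The IGF2 interval overlaps the read-through gene INS-IGF2 and an unnamed row (ENSG00000284779) on the same strand, both at 0 reads in every library. In GENCODE version 29 it also overlaps the antisense gene IGF2-AS and, on the same strand, another protein-coding gene of the name IGF2. The sources used here do not say how reads of overlapping rows were assigned or whether strand was used. TH, the tyrosine hydroxylase gene of catecholamine synthesis, lies 22.7 kb from IGF2 and fell 2.99-fold, from 270.6 ± 26.9 to 90.6 ± 7.22 CPM (SD, n = 3 per group; edgeR adjusted p = 9.35e-10). Of 21 tested neighbours within 1 Mb of IGF2, 3 were higher and 5 lower, against 20.2% and 21% of all tested genes. These neighbours had a median log2 fold change of -0.04. Their fold changes ran from -1.64 for CDKN1C to 1.47 for PHLDA2, so IGF2 at -2.63 lay below every one of them.

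Both signalling receptors among the 10 genes were well expressed, but of this pair the test called INSR alone. The receptor gene INSRR, outside the 10 genes, was higher in sgGPR91, at 12.3 ± 3.64 and 21.4 ± 3.25 CPM. Its rise was 1.76-fold (edgeR adjusted p = 0.00204), and it was picked for mention with its value known. INSR (ENSG00000171105, chromosome 19, 7112255 to 7294414, minus strand) was at 100.4, 115.8 and 119.7 CPM in sgcon and at 71.3, 76.1 and 77.9 CPM in sgGPR91. The groups did not overlap, as for 50.9% of all tested genes. INSR fell 1.49-fold, with a log2 fold change of -0.58 ± 0.08 and an edgeR adjusted p of 3.08e-05. Of 35 tested neighbours of INSR within 1 Mb, 14 were lower and 2 higher, with a median of -0.25, where 21% of all tested genes were lower and 20.2% higher; this difference was not tested.

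IGF1R (ENSG00000140443, chromosome 15, 98648539 to 98964530, plus strand) was at 549, 624 and 697 CPM in sgcon and at 632, 649 and 665 CPM in sgGPR91. All sgGPR91 values fell inside the sgcon range. The log2 fold change was 0.06 ± 0.08 with an edgeR adjusted p of 0.609, and its sign turned without sgcon replicate 1 (-0.027). IGF1R overlaps a pair of antisense transcripts in GENCODE.

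A ratio within a library does not depend on library scaling, so INSR was also set against IGF1R on the FPKM scale, which is scaled to library size and gene length. The ratio was 0.235, 0.239 and 0.221 in the sgcon libraries and 0.145, 0.151 and 0.151 in the sgGPR91 libraries. The groups were separate, with a difference of -0.64 on the log2 scale, or 1.56-fold. A two-sided exact permutation test gave p = 0.1 (0.1 when adjusted over the 2 ratios tested), the smallest p that 3 libraries against 3 allow.

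IGF2R (ENSG00000197081, chromosome 6, 159969082 to 160113507, plus strand), the clearance receptor that lacks kinase activity, was at 435, 522 and 557 CPM in sgcon and at 595, 575 and 591 CPM in sgGPR91. The groups did not overlap, but sgcon replicate 3 lay close to the sgGPR91 libraries. IGF2R rose 1.16-fold, with a log2 fold change of 0.22 ± 0.08 and an edgeR adjusted p of 0.04999. This call stood at the edge of the threshold and ended in 8 of the 13 alternative settings. It ended without sgcon replicate 1 (adjusted p = 0.211) or 2 (0.0857), and without sgGPR91 replicate 1 (0.127), 2 (0.0961) or 3 (0.143). IGF2R overlaps the antisense transcript AIRN in GENCODE.

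The upstream sequence of IGF2R is shown because it held 3 copies of the E-box CACGTG, the sequence that MYC-family factors such as MYCN bind. The copies begin 132, 74 and 28 bases before the RefSeq start site, and they are in capitals in the 250 bases before that site (RefSeq, GRCh38.p14, chr6:159968832-159969081, plus strand, 5′ to 3′).
IGF2R: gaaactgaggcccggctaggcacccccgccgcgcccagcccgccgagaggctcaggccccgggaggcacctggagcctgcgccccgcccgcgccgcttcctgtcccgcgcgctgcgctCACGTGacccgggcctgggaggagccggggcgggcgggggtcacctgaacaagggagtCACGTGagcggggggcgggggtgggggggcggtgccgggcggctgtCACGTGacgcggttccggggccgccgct
At least 1 E-box of these letters was present in 7.26% of the 35116 promoter windows of 300 bases in the RefSeq table. Each window runs from 250 bases before to 50 after a start. Of the 15 windows of the 9 member genes found there, 2 held an E-box, those of IGF2R and IRS1. The share of windows with 3 copies was not counted. The match is a description of the letters, and MYCN binding was not measured here.

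The docking proteins differed from each other. IRS2 (ENSG00000185950, chromosome 13, 109752695 to 109786583, minus strand) was at 63.0, 56.0 and 55.9 CPM in sgcon and at 99.2, 93.4 and 93.2 CPM in sgGPR91. The groups were far apart relative to the spread within each. IRS2 rose 1.63-fold, with a log2 fold change of 0.71 ± 0.08 and an edgeR adjusted p of 2.71e-06. IRS2 overlaps an antisense transcript in GENCODE.

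IRS1 (ENSG00000169047, chromosome 2, 226731312 to 226799820, minus strand) was at 24.4, 23.9 and 31.2 CPM in sgcon and at 25.3, 19.2 and 22.7 CPM in sgGPR91. The groups overlapped, and the log2 fold change of -0.23 ± 0.13 did not pass (edgeR adjusted p = 0.181). IRS4, the remaining docking protein of the family examined, had 0 reads in every library.

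The ratio of IRS2 to IRS1 on the FPKM scale was 3.17, 2.87 and 2.20 in sgcon and 4.81, 5.96 and 5.05 in sgGPR91. All sgGPR91 libraries lay above all sgcon libraries. The difference was 0.95 on the log2 scale, or 1.93-fold, with a two-sided exact permutation p of 0.1 (0.1 adjusted over the 2 ratios).

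IRS2 is a textbook target of FOXO factors, which bind forkhead elements and the related insulin response element of insulin-repressed genes. Its upstream sequence is shown because it was the single member window with the insulin response element CAAAACAA, searched on both strands. The element reads as TTGTTTTG on the strand of the gene, begins 41 bases before the start site and is in capitals (RefSeq, GRCh38.p14, chr13:109786584-109786833, minus strand, 5′ to 3′).
IRS2: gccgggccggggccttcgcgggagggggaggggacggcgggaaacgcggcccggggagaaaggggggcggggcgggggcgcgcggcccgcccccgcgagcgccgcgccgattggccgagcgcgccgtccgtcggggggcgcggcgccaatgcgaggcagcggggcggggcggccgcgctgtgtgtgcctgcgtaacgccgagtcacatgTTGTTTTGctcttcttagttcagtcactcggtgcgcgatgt
These letters were found in 1.68% of all promoter windows. The forkhead element GTAAACA was in 3.42% of all windows and in 0 of the 15 windows of the member genes. FOXO binding was not measured here, and no match says only that the letters are not in these windows.

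GRB10 (ENSG00000106070, chromosome 7, 50590063 to 50793462, minus strand) went from almost no reads to a low level. Its reads numbered 5, 2 and 0 in sgcon and 43, 44 and 65 in sgGPR91. In CPM these were 0.559, 0.198 and 0 against 4.88, 5.32 and 7.67. The lowest sgGPR91 library thus lay well above the highest sgcon library, although sgcon replicate 3 had no read, which allows up to 3. GRB10 rose with a log2 fold change of 4.41 ± 0.49 and an edgeR adjusted p of 3.06e-06. As it passed the low-count filter through the sgGPR91 libraries alone, it had to differ to be tested, and this p is no independent support. The ratio of reads, 152 against 7 and scaled to library size, was 22.3 with an exact 95% interval of 10.6 to 56.4 that covers counting error only. The size depended on sgcon replicate 1, which held 5 of the 7 sgcon reads: without it the log2 fold change was 5.52.

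Even after the rise GRB10 was a minor transcript, at 0.610 ± 0.156 FPKM (SD, n = 3), above 7.73% of the tested genes in sgGPR91. GRB14, a related adaptor, was at 2.43 ± 0.783 and 1.603 ± 0.470 CPM and did not pass (edgeR adjusted p = 0.226). GRB7, the remaining member of this adaptor family, had 3 reads in sgcon and 0 in sgGPR91 and was not tested.

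The tested neighbours of GRB10 had small differences. Within 1 Mb lay 7 genes, of which 2 were tested. DDC, the aromatic amino acid decarboxylase gene 24.7 kb away, rose 1.32-fold from 174.9 ± 11.4 to 231.7 ± 17.1 CPM (SD, n = 3 per group; edgeR adjusted p = 0.000441). FIGNL1, 47.5 kb away, was at 52.3 ± 4.14 and 46.7 ± 3.39 CPM and did not pass (edgeR adjusted p = 0.161). IKZF1 and COBL, the next genes, had 1 and 0 reads in all, and SPATA48 and ZPBP had 0. VWC2, 668 kb away, had 0 reads in every sgcon library and 4, 5 and 3 in the sgGPR91 libraries. It was too low to be tested.

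The GRB10 sequence nearest its listed start is shown because GRB10 had the largest difference of the 10 genes. The RefSeq start site lies 9 bases from the listed gene end, and 5 start windows are given for the gene. The 120 bases before that site (RefSeq, GRCh38.p14, chr7:50793454-50793573, minus strand, 5′ to 3′) held none of the 4 motifs searched, so none is in capitals.
GRB10: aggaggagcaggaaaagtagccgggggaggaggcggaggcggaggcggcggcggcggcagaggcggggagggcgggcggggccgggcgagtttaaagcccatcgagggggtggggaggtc
The window of 300 bases around this site held 44 CG dinucleotides, where the median over all windows was 14. Which start site was used cannot be read from counts per gene.

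The genes whose profile over the 6 libraries was most like that of GRB10 were FLI1, CDH6, ECEL1, COL13A1 and ZIC2. Likeness was the Euclidean distance of log2(CPM + 0.5), centred on the sgcon mean, which ran from 0.649 for FLI1 to 0.866 for ZIC2 among 12701 tested genes. FLI1, an ETS transcription factor gene, was at 0.141 ± 0.122 and 5.01 ± 0.0652 CPM. With 2, 2 and 0 reads in sgcon, it too passed the low-count filter through the sgGPR91 libraries alone and so had to differ to be tested. ZIC2, a zinc finger factor gene, was at 14.9 ± 1.04 and 123.4 ± 5.23 CPM, a much higher level. Its log2 fold change in the edgeR fit was 3.04, against 4.92 for FLI1 and 4.41 for GRB10. ZIC2 still ranked near GRB10, since adding 0.5 CPM shrinks the differences of the low genes in the distance used. With 2 groups such a profile is mainly the group difference.

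All the IGF-binding protein genes among the members were higher. IGFBP2 (ENSG00000115457, chromosome 2, 216632828 to 216664436, plus strand) was at 287, 287 and 242 CPM in sgcon and at 480.1, 411 and 436 CPM in sgGPR91. IGFBP5 (ENSG00000115461, chromosome 2, 216672105 to 216695549, minus strand) was at 76.4, 83.2 and 75.5 CPM in sgcon and at 136.1, 142.8 and 138.4 CPM in sgGPR91. For both genes every sgGPR91 library lay above every sgcon library. IGFBP2 rose 1.62-fold (log2 0.70 ± 0.08, edgeR adjusted p = 6.02e-06) and IGFBP5 rose 1.77-fold (log2 0.83 ± 0.07, edgeR adjusted p = 1.77e-07).

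IGFBP2 and IGFBP5 are neighbours that end 7.67 kb apart on opposite strands. The nearest tested genes beyond the pair, RPL37A and SMARCAL1, were lower, at log2 fold changes of -0.31 and -0.31. Of 8 tested neighbours of IGFBP5 within 1 Mb, IGFBP2 included, 3 were higher and 2 lower, against 20.2% and 21% of all tested genes. IGFBP5 overlaps an antisense transcript in GENCODE.

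IGFBP4 (ENSG00000141753, chromosome 17, 40443450 to 40457725, plus strand) was at 30.1, 28.7 and 21.4 CPM in sgcon and at 36.2, 32.4 and 36.5 CPM in sgGPR91. The groups were separate but close, since sgcon replicate 1 lay just below sgGPR91 replicate 2. IGFBP4 rose 1.30-fold, with a log2 fold change of 0.38 ± 0.12 and an edgeR adjusted p of 0.0192. The call ended without sgcon replicate 3 (adjusted p = 0.0556) and without sgGPR91 replicate 1 (0.0688) or 3 (0.0745).

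The sequences before the IGFBP4 and IGFBP5 start sites are set side by side because both genes rose. IGFBP4 held the TATA box letters TATAAA, beginning 29 bases before the start and shown in capitals, while IGFBP5 held none of the 4 motifs. The search was for exact letters, so variants of a motif were not counted. Each stretch is the 120 bases before the RefSeq start, 5′ to 3′ (GRCh38.p14, chr17:40443330-40443449, plus strand, and chr2:216695550-216695669, minus strand).
IGFBP4: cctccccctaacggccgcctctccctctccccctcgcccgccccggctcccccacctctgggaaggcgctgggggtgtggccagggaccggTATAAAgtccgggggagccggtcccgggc
IGFBP5: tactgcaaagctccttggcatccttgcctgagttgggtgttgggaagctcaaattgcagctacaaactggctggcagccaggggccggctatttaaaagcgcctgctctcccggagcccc
TATAAA, on either strand, was in 11.5% of all promoter windows, and also in 1 of the other GRB10 windows. The IGFBP4 window of 300 bases held 30 CG dinucleotides and the IGFBP5 window held 9.

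On the FPKM scale, IGFBP2 was the most abundant of the 10 transcripts in both groups, at 57.1 ± 4.36 FPKM in sgcon and 93.4 ± 6.67 FPKM in sgGPR91 (SD, n = 3 per group). IGF1R followed at 44.6 ± 6.13 and 46.6 ± 1.50 FPKM, and IGF2R at 22.3 ± 3.11 and 26.0 ± 0.343 FPKM. In sgcon the next levels, IGFBP5, IGFBP4 and INSR, were at 12.1, 12.04 and 10.3 FPKM, and neighbours in this order overlapped between libraries. IRS2 (7.12), IGF2 (3.96), IRS1 (2.64) and GRB10 (0.0253 FPKM) followed without overlap. In sgGPR91 the order below IGF2R was IGFBP5, IGFBP4, IRS2, INSR and IRS1 without overlap, at 21.6, 15.9, 11.7, 6.95 and 2.24 FPKM. IGF2 and GRB10 came last there at 0.642 and 0.610 FPKM, with overlapping libraries. IRS2 therefore stood below INSR in sgcon and above it in sgGPR91, and IGF2 stood above IRS1 in sgcon and below it in sgGPR91.

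Of 15 other genes of the IGF axis, 11 were tested, and 5 were higher and 3 lower, with a median log2 fold change of 0.54. The share called was 72.7%, against 41.1% of all genes. IGFBP7, a binding protein of low affinity for IGFs, had 2, 2 and 5 reads in sgcon and 53, 40 and 43 in sgGPR91, a rise of 3.89 ± 0.42 on the log2 scale (4.57 without sgcon replicate 3, which held 5 of the 9 sgcon reads). Like GRB10, IGFBP7 passed the low-count filter through the sgGPR91 libraries alone and so had to differ to be tested; without it, 7 of 10 genes were called, with a median of 0.30. PAPPA, a protease that cleaves IGFBP4 and IGFBP5 and so frees IGF, rose 2.66-fold from 7.47 ± 2.08 to 19.7 ± 2.19 CPM (edgeR adjusted p = 1.6e-05). Its relative PAPPA2 fell 1.91-fold from 14.5 ± 1.73 to 7.64 ± 0.327 CPM (edgeR adjusted p = 0.000231). IGFBP3, the main carrier in serum, fell 1.61-fold from 21.4 ± 4.74 to 13.4 ± 0.408 CPM. The binding proteins and their proteases therefore had members in both directions. STC2 and STC1, also in this list, differed in direction. STC2 rose 1.46-fold from 84.2 ± 9.86 to 123.3 ± 8.32 CPM (edgeR adjusted p = 0.00011). STC1 fell 1.38-fold with overlapping libraries (edgeR adjusted p = 0.0356). Cleavage of binding proteins and release of IGF were not measured here. IGFBP1 had 0 reads in every library.

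Of 21 receptor adaptors and docking proteins, 18 were tested, and 2 were higher and 6 lower, with a median of -0.12. The share called, 44.4%, was near that of all genes. SHC1, which links receptors to RAS, rose 1.68-fold from 401.1 ± 14.7 to 675.1 ± 7.87 CPM (edgeR adjusted p = 3.51e-07), and SH2B3 rose 1.32-fold. GAB2, a docking protein that recruits PI3-kinase and SHP2, fell 1.76-fold from 401.2 ± 13.7 to 227.6 ± 8.34 CPM (edgeR adjusted p = 1.27e-07), and SH2B2, an adaptor of the insulin receptor, fell 1.64-fold. GIGYF1, which binds GRB10, was among the lower genes, with a log2 fold change of -0.28 and overlapping libraries; it was picked for mention with its value known.

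Of 20 genes of PI3-kinase, AKT and the phosphatases that oppose them, 18 were tested, and 4 were higher and 4 lower, with a median of -0.04. The share called was again 44.4%. PIK3R3, a regulatory subunit of PI3-kinase, rose 1.99-fold from 53.7 ± 5.25 to 106.4 ± 8.53 CPM (edgeR adjusted p = 2.75e-07), and the AKT phosphatase PHLPP2 rose 1.42-fold. The cytokine signalling suppressor SOCS3 fell 1.93-fold from 5.81 ± 0.569 to 3.00 ± 1.48 CPM, and the catalytic subunit PIK3CD fell 1.61-fold. Without sgGPR91 replicate 1 the count fell from 8 to 4, and the SOCS3 and PIK3CD calls ended (edgeR adjusted p = 0.108 and 0.0574). In that setting 33.0% of all tested genes were called, against 41.1% in the main fit. The PHLPP2 call ended without sgcon replicate 2 (edgeR adjusted p = 0.0684).

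All 20 genes of the TSC and mTOR branch were tested, and 5 were higher and 9 lower, with a median of -0.24. The share called was 70.0%, against 41.1% of all genes. MAPKAP1, a subunit of mTOR complex 2, rose 1.42-fold from 46.9 ± 2.56 to 66.6 ± 2.42 CPM (edgeR adjusted p = 0.000112), and the kinase gene MTOR rose 1.32-fold. RICTOR, another mTOR complex 2 subunit, fell 1.35-fold from 73.7 ± 2.79 to 54.6 ± 3.85 CPM (edgeR adjusted p = 0.000455). The leucine sensor gene SESN1 was called at a log2 fold change of -0.45 (edgeR adjusted p = 0.0442), a call that ended in 9 of 13 settings. Among these were the runs without sgGPR91 replicate 1 (adjusted p = 0.199) or 2 (0.0926) and without sgcon replicate 2 (0.0692) or 3 (0.103). The count of called genes fell from 14 to 8 of 20 without sgGPR91 replicate 1, a setting in which 33.0% of all tested genes were called.

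Of 22 FOXO factors and known FOXO targets, 17 were tested, and 2 were higher and 3 lower, with a median of -0.12; IRS2 and INSR are not in this list. The share called was 29.4%, against 41.1% of all genes. TXNIP, which inhibits thioredoxin and glucose uptake, rose 2.36-fold from 84.5 ± 18.6 to 200.9 ± 17.5 CPM (edgeR adjusted p = 5.2e-07). The factor gene FOXO1 was also higher, at 2.00 ± 0.389 and 4.21 ± 0.890 CPM (edgeR adjusted p = 0.00908). It lay below the 5 CPM set for naming and was picked with its value known. FOXO3, FOXO4 and FOXO6 were not called. CCNG2, a cyclin that slows the cell cycle, fell 2.06-fold from 125.4 ± 21.3 to 61.1 ± 3.34 CPM (edgeR adjusted p = 1.05e-06). FBXO32, a ubiquitin ligase gene, was called at a log2 fold change of -0.56, which ended without sgGPR91 replicate 1 (edgeR adjusted p = 0.0828) or 2 (0.0796) and without sgcon replicate 1 (0.0780) or 3 (0.0740). The count of called genes was 3 without sgGPR91 replicate 1 and 3 without sgGPR91 replicate 2, against 5 with all libraries. Of all tested genes, 33.0% and 33.9% were called in those settings.

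**Figure D3:**
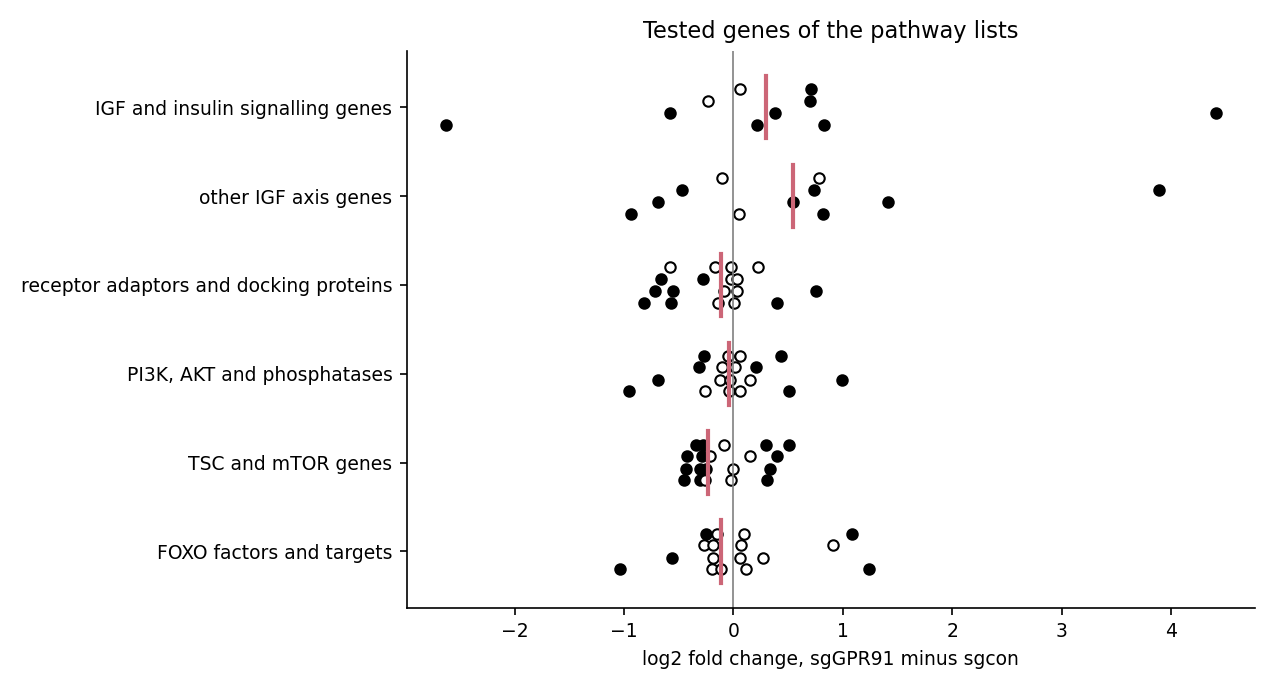
Log2 fold change, sgGPR91 minus sgcon, of every tested gene of the 10 IGF and insulin signalling genes and of 5 pathway lists; filled points passed the test, open points did not, and the red bar is the median of the list. Medians ran from -0.24 for the TSC and mTOR genes to 0.54 for the other IGF axis genes.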

How the data were processed

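RNA sequencing of 6 libraries (3 sgcon, 3 sgGPR91, grouped by title) was analysed. The deposited table gives whole, unnormalized read counts per gene, per the file headers. Its deposited FPKM values equal the counts divided by listed length and column total, with a largest relative difference of 5.11e-15 over 90322 values. The tools listed per the submitters' processing notes are HISAT2, RSEM and Bowtie2; the sources used here do not give versions, roles, strand setting or genome build. GENCODE version 29 (GRCh38) holds 19820 of the gene identifiers, 61.0% with the same start; coordinates are printed as deposited. Promoter windows from RefSeq (GRCh38.p14), matched by symbol, covered 9 of the 10 genes.

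Counts were tested with edgeR 4.0.16 in R 4.3.3: filterByExpr (minimum count 10, minimum total 15), TMM scaling, quasi-likelihood test without covariates, and Benjamini-Hochberg adjustment over 12701 genes with a threshold of 0.05. Levels are TMM-scaled CPM; an SE is the size of a log2 fold change over the root of its F statistic. On simulated data for sgGPR91 against sgcon (12586 genes), 80.6% of 67 genes changed 1.5-fold, 86.6% of 67 changed 2-fold and all 63 changed 4-fold were recovered, with 11 unchanged genes called. A far smaller share of genes was changed there than the 41.1% called in the data, so these rates need not hold for the real fit. Within-group library pairs differed by more than counting noise, and most in the pairs with sgcon replicate 3. Chi-square over degrees of freedom was 9.60 and 6.60 for those pairs and 1.83 to 4.45 for the others. No label says that replicates were separate cultures, so p-values reflect only how far these libraries vary, a spread that may be technical.

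Alternatives were other scalings, no filter, DESeq2 1.42.0, limma 3.58.1 on log2(FPKM + 1) and log2(FPKM + 0.1), a replicate block, and leaving out each library. Beside the 10 genes, those named are SUCNR1, per list at most 2 called genes in each direction with the largest fold change and a mean of at least 5 CPM, the 5 profiles nearest to GRB10, and the tested neighbours of GRB10 within 1 Mb; other genes named are list or marker members given for their role or as neighbours. The members and lists were chosen with earlier results of these data known.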

Additional observations from a re-analysis of the deposited data

How the results depend on the processing

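Over the 10 genes and 13 alternative settings, 117 of 130 fold changes kept their direction and side of the threshold, 12 calls ended (8 for IGF2R, 4 for IGFBP4) and 1 uncalled value turned sign, IGF1R, which ran from -0.027 without sgcon replicate 1 to 0.145 without sgcon replicate 3. Between 6 and 8 of the genes were called, and IGF2, INSR, IRS2, GRB10, IGFBP2 and IGFBP5 were called in every setting. In the main fit GRB10 passed the low-count filter through the sgGPR91 libraries alone. Over all genes, 4108 to 5707 were called when a library was left out and 4292 to 5670 in the other settings. On log2(FPKM + 1), which understates changes of low genes, the log2 fold changes of GRB10 and IGF2 were 0.65 and -1.59. No scaling moved the median of all genes by over 0.1. When a library was left out, the INSR to IGF1R difference ran from -0.67 to -0.62 and that of IRS2 to IRS1 from 0.80 to 1.06. Of the 14 called TSC and mTOR genes, the count was 9 with limma on log2(FPKM + 0.1) and 8 without sgGPR91 replicate 1; that of PI3-kinase, AKT and phosphatase genes went from 8 to 4, and that of FOXO genes from 5 to 3, without that same library, and the latter was also 3 without sgGPR91 replicate 2. Of all tested genes, 33.8% were called with that limma fit, 33.0% without sgGPR91 replicate 1 and 33.9% without sgGPR91 replicate 2. In the main fit the share was 41.1%. The cause of these changes in count was not tested.

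Replicate numbers are shared between the groups, but same-numbered libraries deviated together only weakly (correlations of 0.146, 0.0169 and 0.0837), and sgGPR91 replicate 2 correlated best with sgcon replicate 3. With the replicate block, 5670 genes were called in place of 5221, and 8 of the 10 genes as before; sign flips of the paired ratios gave an exact p of 0.25, the smallest that 3 pairs allow. The 7 GRB10 reads in sgcon limit the precision of its fold change.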

Other observations

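IGF2 and GRB10 are imprinted, so a list of 32 other imprinted genes was examined beside them. Of these, 26 were tested, and in sgGPR91 3 were higher and 7 lower, with a median log2 fold change of -0.12; the share called was 38.5%, against 41.1% of all tested genes. MEST passed the low-count filter through 1 group alone; without it, 9 of 25 were called. CDKN1C, a cyclin-dependent kinase inhibitor gene of the same imprinted region of chromosome 11 as IGF2, fell 3.12-fold from 62.9 ± 19.6 to 20.3 ± 0.222 CPM (SD, n = 3 per group; edgeR adjusted p = 2.09e-06). DLK1, a Notch-ligand-like gene of chromosome 14, fell 2.60-fold from 542.6 ± 119.98 to 208.6 ± 16.6 CPM. PHLDA2, which also lies in the chromosome 11 region, rose 2.78-fold from 3.15 ± 0.95 to 8.58 ± 0.509 CPM, and BLCAP rose 1.64-fold. Genes of that region thus moved in both directions. Counts per gene carry no allele, so imprinting itself was not measured.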
